A study of Homo sapiens with 24 samples.

Results

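The comparison described here set xenograft tumours of the sh1487 line that carried a cDNA against tumours of the sh1487 line that carried none, both in mice without doxycycline, so the diet induced the hairpin in neither group. It used 6 of the 24 libraries of the series, 3 with the cDNA and 3 without, chosen by their labels. The tumours were grown from COLO320DM, a human colorectal adenocarcinoma cell line that carries extra copies of MYC, and poly(A) RNA was sequenced. The labels date every sample to 72 hr, and the design note has tumours taken on day 3 of a diet that began at a mean tumour size of 150 mm3. A second pair of groups served for comparison, uninduced tumours of the shNT line with the cDNA and without it, again 3 libraries each. The other 12 libraries, the same lines on doxycycline, entered only the shared estimate of spread and the filter that set which genes were tested. The labels name neither the gene of the cDNA nor the target of the hairpin. Each group is 1 line, so the cDNA and any other difference between the lines cannot be told apart. The labels do not tie replicates to separate tumours either, so p-values are set against a spread between libraries that may be technical only.

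β-Catenin, the protein of CTNNB1, joins cadherins to the actin cytoskeleton and also enters the nucleus, where it binds TCF/LEF factors and switches on Wnt target genes. In most colorectal cancers this nuclear arm is active without a Wnt signal. A separate programme, the integrated stress response, is described at length below because its genes led the rises. In it, kinases that sense amino acid shortage, misfolded protein, haem deficiency or viral RNA phosphorylate the initiation factor eIF2α, general translation falls, and the transcription factor ATF4 is made and switches on genes for amino acid uptake, amino acid synthesis and tRNA charging. CHOP, the protein of DDIT3, is a second factor downstream of ATF4.

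The reads recovered from the deposited table numbered 45490049 to 52511654 per library with the cDNA and 68488571 to 80202279 without it, over 14119 genes. Values are in CPM, the reads of a gene scaled to the size of the library, and 3 reads stood at 0.0558 to 0.0676 CPM with the cDNA and at 0.0381 to 0.0446 CPM without it, which covers counting error only. Mitochondrially encoded genes took 10.3% to 12.8% of reads with the cDNA and 11.4% to 12.1% without it. The depth differed between the groups, and its part in the results was not tested. CDX2, an intestinal transcription factor, was at 1696 to 1998 CPM with the cDNA and 1806 to 2101 CPM without it. The epithelial genes EPCAM (0.539 to 0.660 against 0.461 to 0.623 CPM), VIL1 and CDH1 were near 0 in all 6 libraries. The keratins KRT8 (136 to 142 against 146 to 150 CPM) and KRT18 (67.4 to 78 against 64.2 to 67.7 CPM) and the intestinal cadherin CDH17 (8.02 to 9.13 against 9.11 to 10 CPM) were present. Of marker lists for host or other cells, 4 of 12 endothelial, 9 of 13 fibroblast and pericyte, 5 of 13 leukocyte and 3 of 7 erythroid genes were measured. Their summed levels were 90.0 to 94.4 against 94.5 to 106 CPM for the endothelial list, most of it ERG. The summed levels were 161 to 176 against 172 to 186 CPM for the fibroblast list. They were 57.3 to 62.3 against 47.4 to 51.4 CPM for the leukocyte list, most of it PTPRC, and 9.02 to 10.4 against 12.7 to 13.4 CPM for the erythroid list. RGS5 and PTPRC rose and HBA1 and HBA2, near-identical copies whose reads counting could split, fell. Their part in the results below was not tested. In bulk tumours, fewer cells of a type and less RNA per cell cannot be told apart.

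CTNNB1 (ENSG00000168036, chromosome 3, 41194741 to 41260096, GRCh38) is the gene whose protein the series title names. It stood at 527, 536 and 460 CPM with the cDNA, against 215, 230 and 234 CPM without it. Every library with the cDNA was above every library without. The means were 507 ± 41.3 and 226 ± 10.4 CPM (SD, n = 3 each), a log2 change of 1.16 ± 0.14 (SE; limma adjusted p = 3.47e-06). In the shNT line the means were 658 CPM with the cDNA and 257 CPM without it, and the cDNA effect in sh1487 minus that in shNT was −0.18 in log2 units (limma, adjusted p = 0.597); without library 3 of both shNT groups with the cDNA, described below, it was −0.33 and passed. A gene-level count cannot separate RNA of a transgene from RNA of the chromosomal gene.

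Differences were tested by limma on log2(CPM + 1) over 13832 genes, and a gene was said to rise or fall where its p, adjusted by the Benjamini-Hochberg method over all of them, was under 0.05. This scale understates the change of genes with low CPM. By this rule 3273 genes (23.7%) differed, 1844 higher (13.3%) and 1429 lower (10.3%) with the cDNA. Most changes were small, since 3033 of these genes (92.7%) changed by under 1.5-fold and 27 (0.195%) by at least 2-fold, 24 upward (0.174%) and 3 downward (0.0217%). The median change of all genes was 0.0062, and those at the 5% and 95% quantiles were −0.32 and 0.38. The split of higher and lower genes depended on scaling. Of the calls, 56.3% were higher on the deposited scale and 50.9% with DESeq2 size factors. The share was 71.2% on library size alone and 66.9% on totals without mitochondrial genes. Without the first library of sh1487 without cDNA, 2173 genes were called.

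The 12 largest rises among genes with a mean of at least 1 CPM and groups that did not overlap were led by genes of the integrated stress response. CHAC1, which degrades glutathione, was at 21.6, 21.8 and 22.7 CPM with the cDNA, against 2.99, 2.80 and 3.18 CPM without it. This is a 7.37-fold difference of means with little spread inside either group (log2 change 2.53 ± 0.09 SE, limma adjusted p = 2.53e-14). SLC7A11, the cystine importer, stood at 46.2, 54.1 and 42.7 CPM with the cDNA and at 17.4, 17.5 and 17.7 CPM without it. ASNS, the asparagine synthetase, stood at 147, 141 and 166 CPM with the cDNA and at 52.6, 59.4 and 62.3 CPM without it. In both genes the lowest library with the cDNA was above the highest without, and the log2 changes were 1.39 and 1.36. DDIT3 averaged 61.5 ± 4.66 CPM with the cDNA and 23.6 ± 0.483 CPM without it, and CEBPG, a partner of ATF4 in DNA binding, averaged 148 ± 8.62 and 62.5 ± 2.33 CPM. PCK2, the mitochondrial enzyme that makes phosphoenolpyruvate, averaged 187 ± 2.29 and 81.4 ± 2.27 CPM. The leucine sensor SESN2 (28.2 ± 1.69 against 12.1 ± 0.829 CPM) and the pseudokinase TRIB3, an inhibitor of AKT and of ATF4 itself (65.8 ± 3.44 against 28.9 ± 1.44 CPM), both had log2 changes of 1.16. CEBPB, a transcription factor that stress induces, averaged 46.2 ± 6.85 with the cDNA and 19.7 ± 1.26 CPM without it, and INHBE, an activin subunit, averaged 4.47 ± 0.413 and 1.43 ± 0.082 CPM.

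The other 2 genes among the 12 rises are in none of the stress or amino acid lists. SLCO1A2, a transporter of bile salts and other organic anions, was at 2.99, 3.27 and 2.52 CPM with the cDNA, against 0.193, 0.381 and 0.413 CPM without it. FER1L6, a ferlin family gene, averaged 10.8 ± 0.756 CPM with the cDNA and 4.07 ± 0.661 CPM without it. All 12 rises passed at a limma adjusted p of 0.00129 or less, and their log2 changes ran from 1.16 to 2.53.

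**Figure D1:**
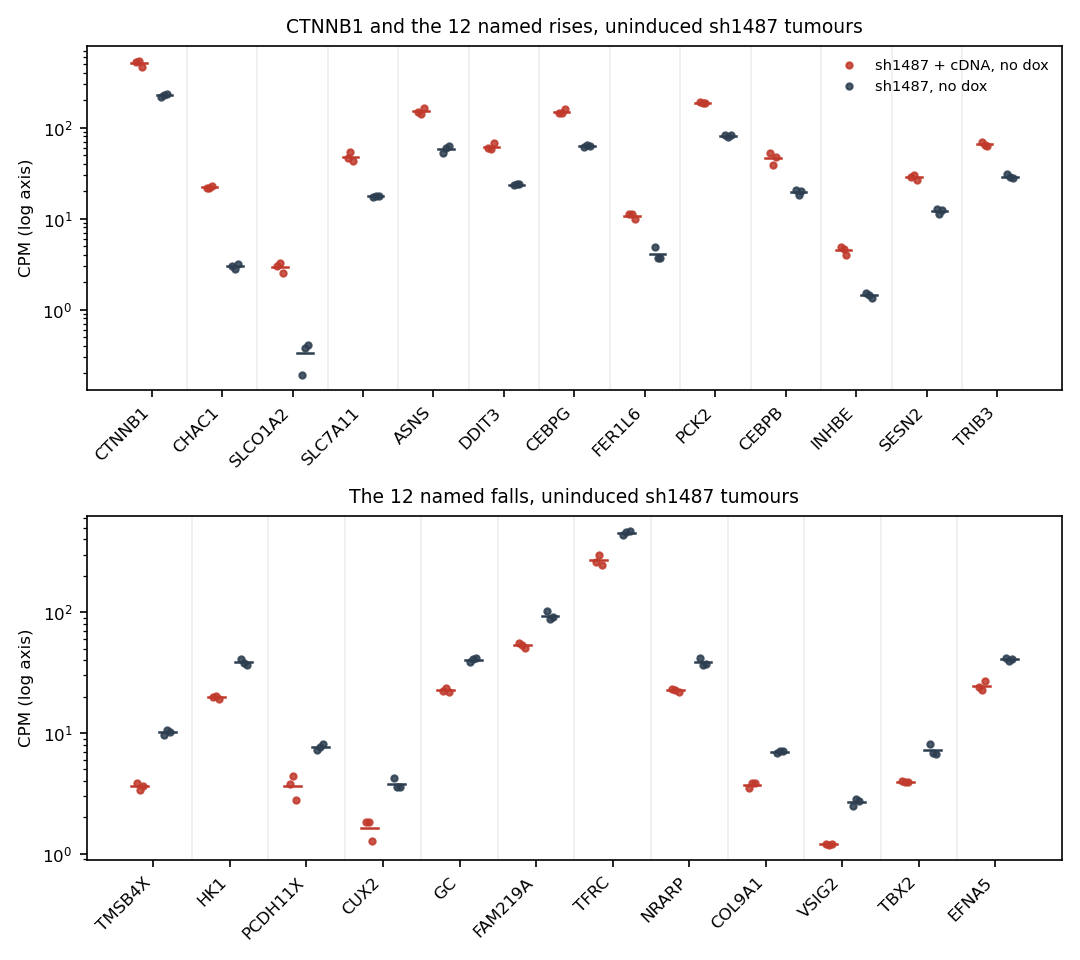
CPM on a log axis of CTNNB1 and the 12 largest named rises (top) and the 12 largest named falls (bottom) in uninduced sh1487 tumours with the cDNA (red) and without it (dark blue). Points are the 3 libraries of a group and lines are their means. In each gene drawn the 3 libraries of one group lie beyond the 3 of the other, and the widest gaps in the top panel are SLCO1A2 at 2.93 against 0.329 CPM and CHAC1 at 22 against 2.99 CPM.

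Promoter sequences are printed for the 4 genes with the smallest p among members of the stress response and the serine, one-carbon and asparagine lists that rose and hold the 8-base pattern TGATGNAA, which is the shape of the composite C/EBP-ATF site described for ATF4 partners. The sequences are RefSeq promoters, 250 bases before to 50 after the start of the gene (GRCh38.p14), read 5′ to 3′ on the strand of the gene, with the match in capitals. A match on the opposite strand appears as its reverse complement. The windows are chr15:40953221-40953520 (plus strand) for CHAC1, chr7:97872359-97872658 (minus) for ASNS, chr1:212565157-212565456 (plus) for ATF3 and chr10:99430575-99430874 (minus) for GOT1.
CHAC1: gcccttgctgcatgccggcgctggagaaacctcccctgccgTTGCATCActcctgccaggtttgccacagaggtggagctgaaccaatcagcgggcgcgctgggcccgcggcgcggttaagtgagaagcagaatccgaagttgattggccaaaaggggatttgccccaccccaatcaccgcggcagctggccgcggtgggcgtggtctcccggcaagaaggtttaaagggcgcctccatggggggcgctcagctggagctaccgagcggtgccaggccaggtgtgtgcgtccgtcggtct
ASNS: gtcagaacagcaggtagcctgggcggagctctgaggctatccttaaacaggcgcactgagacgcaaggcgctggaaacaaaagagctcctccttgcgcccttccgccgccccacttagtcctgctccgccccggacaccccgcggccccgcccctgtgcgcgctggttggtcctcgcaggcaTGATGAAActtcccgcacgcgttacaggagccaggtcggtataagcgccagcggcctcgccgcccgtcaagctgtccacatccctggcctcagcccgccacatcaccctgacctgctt
ATF3: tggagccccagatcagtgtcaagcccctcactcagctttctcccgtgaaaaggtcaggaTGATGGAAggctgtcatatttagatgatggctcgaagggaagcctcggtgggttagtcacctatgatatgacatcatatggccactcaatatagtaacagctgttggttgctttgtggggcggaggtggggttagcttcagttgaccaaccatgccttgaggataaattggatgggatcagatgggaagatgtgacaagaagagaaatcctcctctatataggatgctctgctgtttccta
GOT1: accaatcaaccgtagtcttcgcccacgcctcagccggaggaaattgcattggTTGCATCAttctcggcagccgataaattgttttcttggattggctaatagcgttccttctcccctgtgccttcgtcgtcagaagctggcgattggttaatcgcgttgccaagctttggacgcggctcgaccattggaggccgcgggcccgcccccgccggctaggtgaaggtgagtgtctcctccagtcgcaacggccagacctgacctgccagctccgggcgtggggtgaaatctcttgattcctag
The match began at position −209 in CHAC1, −68 in ASNS, −191 in ATF3 and −198 in GOT1, counted from the start site, on the opposite strand in CHAC1 and GOT1.

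The pattern was searched on both strands of every promoter in the table. It was found in 1270 of 35116 promoters (3.62%), in 189 of the 11006 that belong to tested genes (1.72%), in 36 of 1448 of genes that rose (2.49%) and in 13 of 1138 of genes that fell (1.14%). Of the list members that rose and had a promoter, it was found in 3 of 21 stress response effectors, 3 of 6 enzymes of serine, one-carbon and asparagine synthesis, 2 of 8 amino acid transporters and 5 of 8 tRNA synthetases. Of all tested members with a promoter, it was found in 3 of 25, 3 of 13, 4 of 14 and 6 of 16 in the same order. A match is a description of letters in this window.

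Of 30 stress response effectors tested, 24 rose with the cDNA and 1 fell, where 13.3% of all genes rose and 10.3% fell. Their median log2 change was 0.57, against 0.0062 over all genes. ATF4 itself rose, at 780, 735 and 837 CPM with the cDNA, against 473, 503 and 477 CPM without it (log2 change 0.69 ± 0.11 SE, limma adjusted p = 7.02e-05). ATF3, a further stress factor of the same family, was at 25.3, 25.6 and 26.9 CPM with the cDNA and at 14.7, 14.7 and 15.5 CPM without it. CTH, which makes cysteine from cystathionine, averaged 27.0 ± 0.341 CPM with the cDNA and 13.9 ± 0.567 CPM without it. For these 3 genes, too, the groups did not overlap, but 48.5% of all tested genes had groups that did not overlap. The one that fell was ERO1A, the oxidase that recharges protein disulfide isomerase in the endoplasmic reticulum, at 42.2 ± 0.584 with the cDNA and 51.4 ± 1.48 CPM without it. GDF15, XPOT, NDRG1, SNAPC1 and TNFRSF10B did not pass.

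Genes of amino acid supply, many of them known ATF4 targets, rose in part. Among 19 genes of serine, one-carbon and asparagine synthesis, 9 rose and 1 fell, with a median of 0.19. The shares were 47.4% and 5.26%, against 13.3% and 10.3% of all genes. PSAT1, the transaminase of serine synthesis, averaged 312 ± 9.53 CPM with the cDNA and 196 ± 6.71 CPM without it. GOT1, the cytosolic aspartate transaminase, averaged 57.4 ± 1.33 and 38.2 ± 1.21 CPM, and SHMT2, the mitochondrial enzyme that splits serine, 430 ± 17.4 and 332 ± 7.66 CPM. MTHFD1, the cytosolic folate enzyme, fell (121 ± 3.17 against 145 ± 3.96 CPM). Of 16 amino acid transporters, 9 rose (56.2%) and none fell, with a median of 0.34. SLC7A11 led them, followed by the glycine transporter SLC6A9 (4.52 ± 0.16 against 1.94 ± 0.135 CPM) and the alanine and serine carrier SLC1A4 (58.1 ± 2.79 against 40.8 ± 2.21 CPM). Of 20 cytosolic aminoacyl-tRNA synthetases, which load amino acids on tRNA, 9 rose and 1 fell, with a median of 0.20. SARS, for serine, was at 505, 501 and 512 CPM with the cDNA, against 260, 266 and 256 CPM without it. AARS, for alanine, averaged 342 ± 8.45 and 184 ± 1.72 CPM, and CARS, for cysteine, 114 ± 1.51 and 61.4 ± 2.06 CPM. MARS, for methionine, averaged 278 ± 10.6 and 172 ± 1.72 CPM; its annotated span overlaps that of DDIT3 on the other strand, and whether counting used strand is not given in the sources used here. RARS, for arginine, fell by 0.20 in log2 units (limma adjusted p = 0.0183), a call lost on library size alone and without any 1 of 4 libraries.

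The chaperone arm of the unfolded protein response, driven by XBP1 and ATF6, moved in few genes. Of 22 such genes, HSPA5, DNAJB9, XBP1 and ERN1 rose (18.2%, against 13.3% of all genes) and none fell, with a median of 0.03. DNAJB9, a co-chaperone that restrains IRE1, averaged 24.9 ± 0.909 CPM with the cDNA and 14.9 ± 0.697 CPM without it. XBP1 averaged 297 ± 15.2 and 214 ± 4.1 CPM, and the abundant chaperone HSPA5 rose by 0.24 in log2 units (limma adjusted p = 0.00113). A list of 15 genes held eIF2α kinases, phosphatase subunits and some other genes of this pathway. In it EIF2B2 and OMA1, which are neither kinases nor phosphatase subunits, rose and the RNA-sensing kinase EIF2AK2 fell. The share that rose, 13.3%, was that of all genes.

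**Figure D2:**
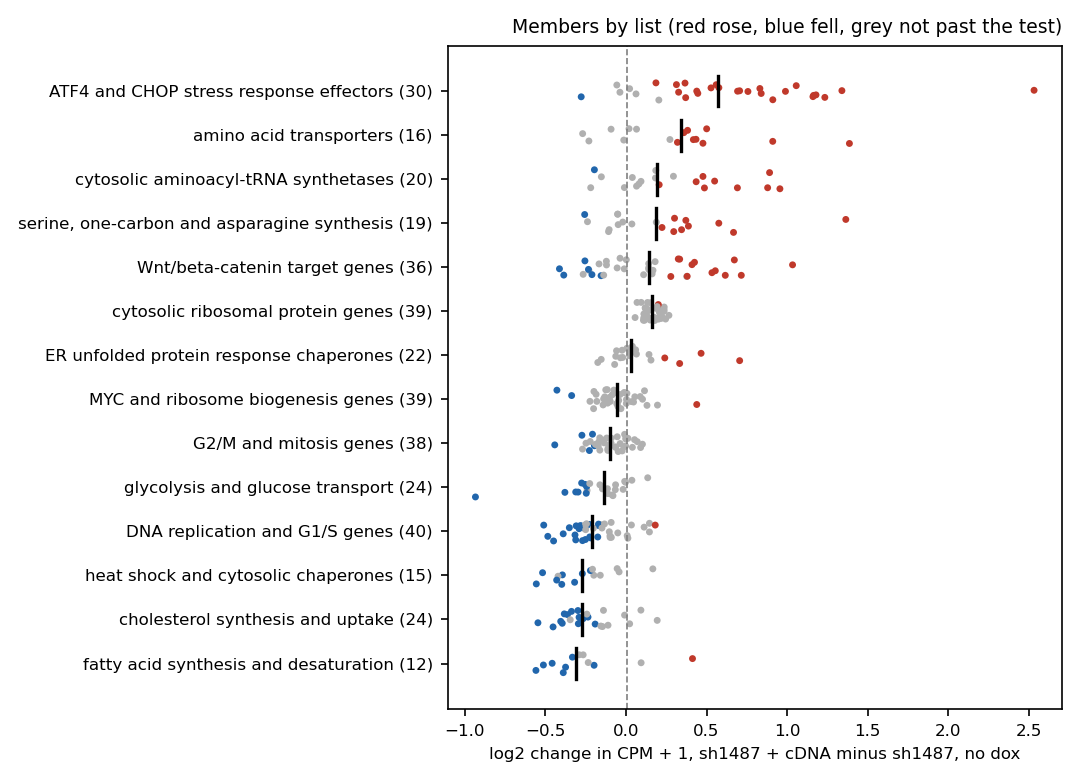
Log2 change in CPM + 1 of each tested member of 14 gene lists, uninduced sh1487 with the cDNA minus without; the number of members stands after each name. Red points rose, blue points fell and grey points did not pass limma at an adjusted p of 0.05; black bars are list medians and the dashed line is the median of all genes (0.0062). The stress response list lies furthest right (median 0.57), and the fatty acid list furthest left (median −0.31).

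Heat shock genes ran the other way. Of 15 heat shock and cytosolic chaperone genes, 8 fell and none rose, with a median of −0.27. The share that fell was 53.3%, against 10.3% of all genes. HSPH1, a nucleotide exchange factor for HSP70, was at 155, 158 and 171 CPM with the cDNA, against 233, 240 and 239 CPM without it. DNAJA1, an HSP40 co-chaperone, averaged 156 ± 7.18 and 210 ± 7.97 CPM. The inducible HSP70 gene HSPA1B averaged 151 ± 6.41 and 199 ± 10.2 CPM, with HSPA1A a near-identical copy whose reads counting could split.

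Genes of lipid synthesis that passed were nearly all lower with the cDNA. Of 24 genes of cholesterol synthesis and uptake, which SREBP2 drives when sterols are scarce, 14 fell and none rose, with a median of −0.27. The share that fell was 58.3%, against 10.3% of all genes. SQLE, the squalene epoxidase, was at 231, 232 and 244 CPM with the cDNA, against 299, 309 and 302 CPM without it. ACAT2, which joins acetyl-CoA units, averaged 62.7 ± 1.88 and 79.5 ± 3.46 CPM, and the isomerase IDI1 91.3 ± 7.1 and 121 ± 7.73 CPM. Of 12 genes of fatty acid synthesis and desaturation, 7 fell (58.3%) and ACSS2, which makes acetyl-CoA from acetate, rose (13.3 ± 0.269 against 9.76 ± 0.807 CPM). The desaturases FADS1 and FADS2 averaged 225 ± 6.67 against 292 ± 5.09 CPM and 111 ± 6.03 against 158 ± 4.67 CPM. ELOVL6, which lengthens fatty acids, averaged 88.8 ± 3.68 with the cDNA and 112 ± 3.05 CPM without it. Of 24 genes of glycolysis and glucose transport, 8 fell (33.3%, against 10.3% of all genes) and none rose. Over the settings run 4 to 13 of the 24 fell. HK1, the hexokinase that takes glucose into the pathway, had the largest fall among them at 19.7, 20.3 and 19.2 CPM with the cDNA, against 40.8, 38.2 and 36.9 CPM without it. PKM, the pyruvate kinase, averaged 647 ± 5.34 and 841 ± 36.2 CPM, and LDHA, which makes lactate, fell by 0.30 in log2 units (limma adjusted p = 0.00225).

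Of 40 genes of DNA replication and the G1/S step, 20 fell and the flap endonuclease gene FEN1 rose, with a median of −0.21. RRM2, the ribonucleotide reductase subunit, was at 141, 143 and 149 CPM with the cDNA, against 204, 203 and 200 CPM without it. GINS1, part of the replicative helicase, averaged 47.7 ± 2.46 and 65.4 ± 0.971 CPM, the phosphatase CDC25A 47.6 ± 1.39 and 59.5 ± 0.385 CPM, and the thymidylate synthase TYMS 46.1 ± 1.78 and 56.5 ± 0.483 CPM. Of 38 genes of G2/M and mitosis, CCNB1, CCNB2, CCNA2, SPC25 and KIF11 fell and none rose, with a median of −0.10. The share that fell, 13.2%, was near the 10.3% of all genes, and 2 to 14 of the 38 fell over the settings run. CCNA2, the S and G2 cyclin, averaged 61.9 ± 1.46 CPM with the cDNA and 84.4 ± 2.36 CPM without it, and the spindle motor KIF11 84.2 ± 0.986 and 102 ± 2.55 CPM.

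CTNNB1 was 2.24-fold higher. Of 36 Wnt/β-catenin targets, 12 rose (33.3%, against 13.3% of all genes) and 6 fell (16.7%, against 10.3%), and the median change was 0.14. In the shNT line, where CTNNB1 rose as well, 3 of the 36 rose and 4 fell, with a median of −0.01. FGF20, a growth factor, was at 1.46, 1.67 and 1.58 CPM with the cDNA, against 0.193, 0.292 and 0.280 CPM without it. TNFRSF19, a receptor of the TNF family, averaged 81.1 ± 0.831 and 50.5 ± 1.66 CPM. NOTUM, the secreted enzyme that inactivates Wnt ligands, averaged 70.2 ± 4.5 and 48.2 ± 3.89 CPM, and VEGFA 108 ± 4.18 and 82.7 ± 1.03 CPM. NKD2, DKK1, SP5, CD44, PROX1, BAMBI, BMP4 and NAV2 rose as well. AXIN2, the feedback scaffold that is the most used readout of the pathway, was at 287, 286 and 289 CPM with the cDNA, against 272, 251 and 258 CPM without it. Its groups did not overlap, yet its log2 change of 0.14 ± 0.05 (SE) did not pass (limma adjusted p = 0.0542). It passed in 7 of 20 alternatives, DESeq2 on recovered reads and only the groups compared among them. LGR5, an intestinal stem cell receptor, averaged 20.8 ± 1.12 and 18.5 ± 0.499 CPM and did not pass (log2 change 0.16 ± 0.09 SE, limma adjusted p = 0.21). MYC averaged 3257 ± 230 CPM with the cDNA and 3699.9 ± 183 CPM without it, which did not pass either (log2 change −0.19 ± 0.13 SE, limma adjusted p = 0.339). TCF7 and LEF1, factors that bind β-catenin, averaged 38.8 ± 1.02 against 46.6 ± 4.05 CPM and 230 ± 9.35 against 256 ± 4.75 CPM. Both fell by a narrow margin, with calls lost in 7 and 8 of 20 alternatives, library size alone and most single libraries left out among them. CCND1, SOX4, MYB and PTPRO fell too.

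Among 43 components of the Wnt pathway, PYGO2 and PORCN rose and 8 fell, among them the co-repressor TLE4 (21.7 ± 1.6 against 31.5 ± 1.63 CPM) and the receptor FZD8 (17.5 ± 1.44 against 23.8 ± 2.24 CPM). Of 18 catenins and cadherins tested, CTNNB1, PKP4, CDH3 and CDH6 rose and JUP, CTNNA1 and CTNNA2 fell. Among all genes 13.3% rose and 10.3% fell. The shares were 4.65% and 18.6% for the Wnt components and 22.2% and 16.7% for the catenins and cadherins. PKP4, an armadillo protein of junctions, averaged 566 ± 4.18 with the cDNA and 426 ± 11 CPM without it. CDH6, a cadherin, averaged 2.19 ± 0.284 and 0.904 ± 0.0164 CPM. JUP, plakoglobin, the closest relative of β-catenin, averaged 48.1 ± 4.42 and 61.8 ± 7.67 CPM (limma adjusted p = 0.0113), a call lost without the first library of sh1487 without cDNA or the second with it.

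The 12 largest falls by the same rule had mixed known roles. TMSB4X, which binds actin monomers and has near-identical pseudogenes whose reads counting could split, was at 3.84, 3.40 and 3.67 CPM with the cDNA, against 9.66, 10.6 and 10.2 CPM without it (log2 change −1.26 ± 0.09 SE, limma adjusted p = 9.04e-10). TFRC, the transferrin receptor, was at 262, 295 and 247 CPM with the cDNA, against 438, 458 and 467 CPM without it. HK1, given above, is also 1 of the 12. NRARP, a feedback inhibitor of Notch, averaged 22.5 ± 0.491 with the cDNA and 38.7 ± 2.85 CPM without it, and the ephrin ligand EFNA5 24.5 ± 1.97 and 40.9 ± 1.34 CPM. The vitamin D binding protein gene GC averaged 22.6 ± 1.02 and 40.3 ± 1.41 CPM, and FAM219A 53.1 ± 3.01 and 93.5 ± 7.45 CPM. PCDH11X, a protocadherin, averaged 3.65 ± 0.797 and 7.63 ± 0.389 CPM, and the transcription factors CUX2 and TBX2 1.64 ± 0.312 against 3.79 ± 0.361 CPM and 3.94 ± 0.0397 against 7.19 ± 0.74 CPM. COL9A1, a collagen chain, averaged 3.74 ± 0.194 and 6.98 ± 0.189 CPM, and VSIG2 1.2 ± 0.0132 and 2.69 ± 0.172 CPM. The 3 genes that fell at least 2-fold on the log2(CPM + 1) scale were TMSB4X, HAPLN1 and KCNJ13, the last named here after its values were seen. KCNJ13, a potassium channel, was at 0.0583, 0.0930 and 0.0225 CPM with the cDNA, near or under the level of 3 reads, against 1.46, 1.97 and 1.47 CPM without it. HAPLN1, which links hyaluronan to proteoglycans, averaged 0.281 ± 0.0963 with the cDNA and 1.59 ± 0.107 CPM without it.

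Mitochondrially encoded mRNAs (13 tested) and metallothionein and zinc exporter genes (7 tested) held no gene past limma's threshold, with 1 in each list at an unadjusted p under 0.05; edgeR on recovered reads also called none of them, and DESeq2 called 1 in the second list. Of 36 nuclear respiratory chain subunits, COX5A fell, and of 39 MYC-linked ribosome biogenesis genes NOP2 rose and WDR12 and UTP20 fell. On the deposited scale all 39 cytosolic ribosomal protein genes had a log2 change above 0 with a median of 0.16, and RPLP0 was among the few that passed. Of 32 mitochondrial ribosomal protein genes, MRPL10, MRPL16, MRPL44, MRPS2 and MRPS12 rose and none fell. The share that rose, 15.6%, was near the 13.3% of all genes. Of 13 histone genes tested, 3 rose (23.1%, against 13.3% of all genes) and none fell, with a median of 0.04. The linker histone gene H1F0 rose to 901 ± 35.2 CPM, against 554 ± 15.2 CPM without the cDNA. HIST1H2AC (16.6 ± 1.26 against 11.6 ± 0.81 CPM) and HIST1H2BD also rose, both in a family of near-identical copies. Of 23 matrix genes, 6 fell and SPOCK2 and the collagenase MMP2 (11.6 ± 0.849 against 7.41 ± 0.196 CPM) rose. Of 19 neuroendocrine secretory genes, 6 fell, CHGA and SYP among them, and SCG5, PCSK2, CPE and NCAM1 rose. Among 18 NRF2 antioxidant genes GCLC, GCLM, SRXN1, TALDO1 and GSR fell and HMOX1, ABCC2 and SLC48A1 rose. The shares that rose were 8.7% of the matrix, 21.1% of the neuroendocrine and 16.7% of the NRF2 genes, against 13.3% of all genes. Those that fell were 26.1%, 31.6% and 27.8% in the same order, against 10.3% of all genes.

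The lists that follow are small, several had shares that rose or fell near those of all genes (13.3% and 10.3%), and nothing is read from their counts. Of 13 genes of the MYC and MAX network, MYCN, MYCL, MXD3 and MLX rose and MLXIP fell. Of 8 intestinal stem cell genes LRIG1, MSI1 and MEX3A fell, and of 11 intestinal differentiation genes FABP2 and HES1 rose and KRT20, CA2 and CEACAM1 fell. Of 13 Notch pathway genes HES4 and NRARP fell, and of 12 Eph receptors and ephrins EFNA4 rose and EPHB4, EFNA5, EFNB2 and EFNB3 fell. Among 19 BMP pathway genes BMP2, BMP7 and CHRD were among those that rose, and BMP6, ID3 and SMAD6 fell, and of 24 semaphorins and plexins SEMA3A, SEMA6C and PLXNA4 rose and 6 fell. Of 21 interferon-stimulated genes IFI35, IFIT2, IRF9 and DDX58 rose and IFIH1 fell, and of 17 genes of MHC class I and antigen processing TAP2 and NLRC5 rose. Of 20 p53 targets FAS, DDB2 and TIGAR rose and BAX, SESN1 and TNFRSF10A fell. Of 24 immediate-early genes DUSP6 rose and FOSL2, EGR1, DUSP1 and SPRY2 fell, and of 21 YAP and SRF targets TAGLN2 and TPM4 fell. Of 17 hypoxia-inducible genes outside glycolysis BHLHE40 and VEGFA rose and EGLN3 and PFKFB4 fell, and of 13 CDK inhibitors and G1 cyclins CDKN2C, CCND3 and RB1 fell. HOXB9 rose among 8 HOXB genes, and ZNF84 and ZNF268 rose among 8 zinc finger genes at the end of chromosome 12q.

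The same cDNA label in the shNT line went with fewer differences: 755 genes passed (5.46%), 330 higher (2.39%) and 425 lower (3.07%). Library 3 of shNT with the cDNA stood apart: 16.5% of its reads were mitochondrial, against 13.8% and 11.4% in libraries 1 and 2, and CTNNB1 was at 525 CPM, against 701 and 746 CPM. Without library 3 of both shNT groups with the cDNA, uninduced and induced, 536 genes passed in shNT, 2949 passed for the difference between the lines, and 4664 passed in sh1487 itself, whose test shares the estimate of spread. The 2 comparisons share no library. The number of genes called in both was 273, and 110 of them changed in the same direction, 3.36% of the sh1487 calls and 14.6% of the shNT calls. The difference between the 2 effects passed for 2384 genes (17.2%), 1431 higher (10.3%) and 953 lower (6.89%) in sh1487. Among the 30 stress response effectors the difference was higher in sh1487 for 26 and lower for 1. In the shNT line 1 of them rose and 4 fell, with a median of −0.06. Among the 24 cholesterol genes the difference was lower for 15 and higher for none; in shNT 7 rose and none fell, with a median of 0.19. Among the 40 replication genes it was lower for 28 and higher for none; in shNT 13 rose and none fell, with a median of 0.21. Without both of those libraries the difference was higher for 24 and lower for 1 of the stress response effectors, lower for 17 cholesterol genes and lower for 30 replication genes.

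**Figure D3:**
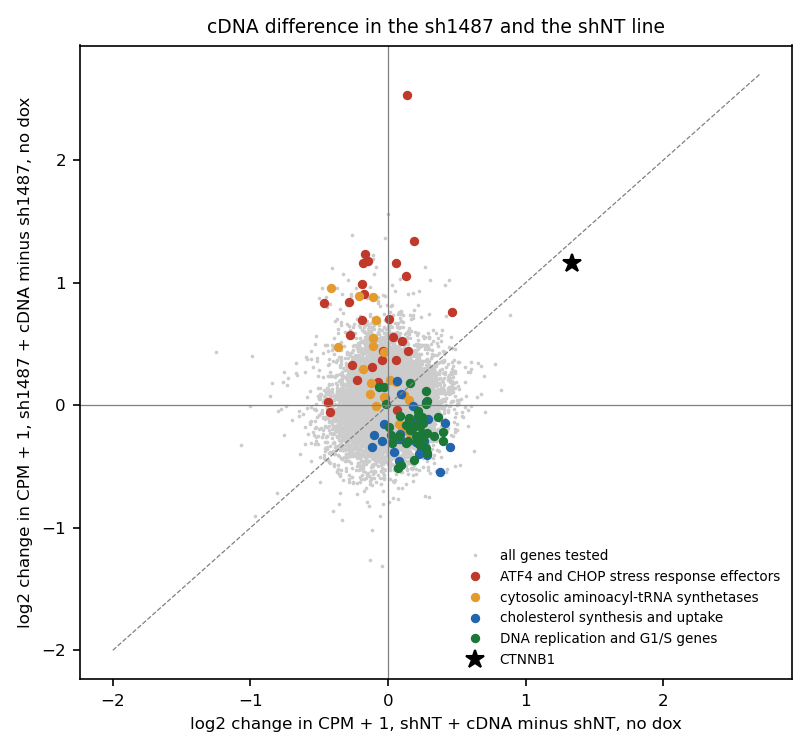
Log2 change in CPM + 1 with the cDNA minus without it in the sh1487 line (vertical) against the shNT line (horizontal), both uninduced; each grey point is 1 of the 13832 tested genes. CTNNB1 (star) is high on both axes at 1.16 and 1.34, while the medians of the stress response effectors are 0.57 and −0.06, those of cholesterol genes −0.27 and 0.19 and those of replication genes −0.21 and 0.21, each given for sh1487 and then shNT. The dashed line marks equal change.

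Levels in the 4 uninduced groups show where the sh1487 group without cDNA lay for these lists. CHAC1 averaged 22 CPM in sh1487 with the cDNA and 2.99 CPM in sh1487 without it, and 38.3 CPM in shNT with the cDNA and 34.7 CPM in shNT without it. ASNS averaged 151 and 58.1 CPM in sh1487 and 222 and 226 CPM in shNT, with the cDNA and without. The level in sh1487 with the cDNA was thus between those of the other sh1487 group and of both shNT groups for these 2 genes. This did not hold throughout: sh1487 with the cDNA was the highest of the 4 for 5 of the 30 stress response effectors and the lowest for 3. DDIT3 averaged 61.5 CPM there, against 52 CPM in shNT with the cDNA and 45.3 CPM in shNT without it. By group means, sh1487 without cDNA was the lowest of the 4 for 26 of the 30 stress response effectors, 10 of 16 amino acid transporters and 12 of 20 tRNA synthetases, where it was the lowest for 29.2% of all genes and the other groups for 21.5% to 25.9%. It was the highest of the 4 for 19 of 24 cholesterol genes, 17 of 24 glycolysis genes, 10 of 15 heat shock genes and 19 of 40 replication genes, against 28.1% of all genes. For the replication genes shNT with the cDNA was the highest nearly as often, in 17 of 40, and shNT without it was the lowest in 21 of 40. The lists given here were picked for their change against sh1487 without cDNA, which itself favours that group as lowest or highest. These counts are therefore not separate support for the changes.

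**Figure D4:**
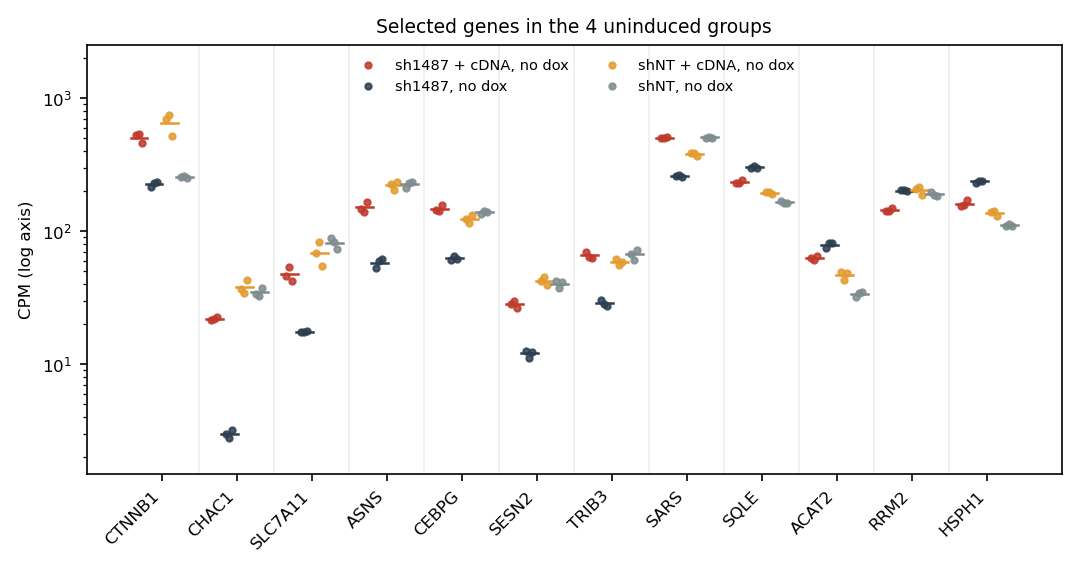
CPM on a log axis of 12 genes in the 4 uninduced groups; points are the 3 libraries of a group and lines are their means. CTNNB1 is high in both groups with the cDNA, while from CHAC1 to TRIB3 sh1487 without cDNA (dark blue) is below the other 3 groups, as for CHAC1 at 2.99 CPM against 22, 38.3 and 34.7 CPM.

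By the same rule on mean and overlap, the 8 highest differences between the effects were those of CHAC1, SLC7A11 and CEBPG from the stress and amino acid lists, and of SLCO1A2, SULF1, KCNJ6, LPAR1 and TG from outside them. SLCO1A2 stood at 0.0118 CPM with the cDNA and 0.0142 CPM without it in shNT, under the level of 3 reads, and its difference did not pass by edgeR or DESeq2 on recovered reads. SULF1, which trims heparan sulfate, averaged 29.9 ± 0.632 CPM with the cDNA and 13.2 ± 1.13 CPM without it in sh1487, and 51.3 and 67.6 CPM in shNT, a difference of effects of 1.53. KCNJ6, a potassium channel, averaged 36.5 ± 0.902 and 18.4 ± 0.37 CPM in sh1487, and 4.52 and 6.69 CPM in shNT. LPAR1, a receptor of lysophosphatidic acid, averaged 12.9 ± 0.656 and 5.63 ± 0.312 CPM in sh1487 and 35.6 and 45 CPM in shNT. TG, thyroglobulin, averaged 2.35 ± 0.226 and 1.55 ± 0.287 CPM in sh1487 and 5.67 and 12.1 CPM in shNT; its rise in sh1487 did not pass without the first library of sh1487 without cDNA. The 8 lowest by that rule were TMSB4X, COL9A1, BMP6, VSIG2, CAPN6, CALB1, CNKSR1 and KCNAB3. BMP6, a bone morphogenetic protein, averaged 7.26 ± 0.454 with the cDNA and 10.6 ± 0.384 CPM without it in sh1487, and 9.16 and 6.07 CPM in shNT. CALB1, a calcium buffer, averaged 159 ± 7.39 and 224 ± 4.78 CPM in sh1487 and 9.44 and 6.43 CPM in shNT. CAPN6 averaged 2.75 ± 0.326 and 3.84 ± 0.0176 CPM, CNKSR1 1.77 ± 0.0881 and 3.04 ± 0.274 CPM, and KCNAB3 2.55 ± 0.211 and 4.09 ± 0.307 CPM in sh1487.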

How the data were processed

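Libraries came from poly(A) RNA with the TruSeq stranded mRNA kit, per the labels' protocols, and were run on the NovaSeq S4 platform. The submitters' processing notes name the GRCh38 build, edgeR 4.0.2, Subread 2.4.2, featureCounts, STAR 2.7.7a and Trimmomatic 0.39 without roles; reads of the mouse host were not stated to be separated. The deposited table holds 1 signal per gene and library in CPM scaled to an effective library size. Whole reads were recovered from it for 100% of values, within a tolerance of 0.001.

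A count test was planned, with limma for a table of CPM; since the table holds CPM, limma 3.58.1 with its trend option in R 4.3.3 was the main test. The fit used log2(CPM + 1), with 8 group means over 24 libraries (16 residual degrees of freedom). Genes needed at least 1 CPM in at least 3 of the 24 libraries, which kept 13832 of 14119 and removed 287. The Benjamini-Hochberg adjustment covered all genes tested. The test was tried on simulated data. The alternatives were DESeq2 1.42.0, edgeR 4.0.16 and limma-voom, each on the recovered reads, other scalings, pseudocounts of 0.1 and 5, other filters, fewer groups in the fit, a replicate block and each library left out. The fit for sh1487 without replicate 3 of both shNT groups with cDNA was chosen after seeing the data. Replicate libraries of a group all differed beyond sampling noise.

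The comparison, the 46 gene lists (1029 entries, 900 measured, 888 tested) and the naming rule were chosen with earlier results of these data known. The rule takes CTNNB1, then the 12 largest rises and 12 largest falls among called genes whose 6 libraries average 1 CPM or more and whose groups do not overlap, leaving out names of clones, antisense RNAs, readthroughs and pseudogenes. It takes 8 and 8 in the same way for the difference from shNT, up to 4 members of a list by smallest p, and more where 5 or fewer are counted. Positions come from GENCODE 29, which holds 14106 of the 14119 IDs. Results for some genes are not reported here.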

Additional observations from a re-analysis of the deposited data

Results flagged for a closer look

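A result is given here where the cDNA effect in the uninduced sh1487 line differed from that in the uninduced shNT line by a test of the difference itself (limma, adjusted p under 0.05). This held for 2384 of all tested genes, and for 78 of the 89 genes given with values above. Most of those 89 were named for their change in sh1487 or for this difference, and both tests use the same sh1487 libraries. A high share among them follows from that choice and is not separate support. Each value is the log2 effect in sh1487 minus that in shNT. A positive one means a higher effect in sh1487, which can come from a rise there, a fall in shNT or both. TG, for instance, had 0.40 in sh1487 and −0.99 in shNT. Groups of 3 libraries are too small for the check for single far libraries.

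In the stress response the differences were 2.4 for CHAC1, 1.40 for CEBPG, 1.34 for TRIB3, 1.32 for CEBPB, 1.15 for DDIT3, 1.12 for INHBE, 1.10 for SESN2 and 1.09 for CTH. ATF4 had 0.88. ATF3 had 0.30, with 47.1 against 33.9 CPM in shNT, and this call was lost in 13 of 25 alternatives. ERO1A had −0.35. Among amino acid genes the differences were 1.65 for SLC7A11, 1.39 for ASNS, 1.30 for PCK2, 1.18 for SLC6A9, 0.85 for SLC1A4, 0.82 for PSAT1, 0.57 for GOT1, 0.44 for SHMT2 and −0.48 for MTHFD1. The tRNA synthetases had 1.37 for SARS, 1.10 for AARS, 0.99 for CARS, 0.78 for MARS and −0.30 for RARS, the last lost without the first library of shNT without cDNA or of sh1487 with it. The chaperone arm had 1.08 for DNAJB9, 0.66 for XBP1 and 0.54 for HSPA5.

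The difference of effects was negative for the heat shock genes HSPH1 (−0.86), HSPA1B (−0.64) and DNAJA1 (−0.48). In lipid synthesis the differences were −0.79 for ACAT2, −0.69 for IDI1, −0.68 for FADS2, −0.60 for SQLE, −0.59 for ELOVL6 and −0.49 for FADS1. In glycolysis they were −0.60 for HK1, −0.51 for PKM and −0.43 for LDHA. The cell cycle genes had −0.63 for GINS1, −0.58 for RRM2, −0.54 for CDC25A, −0.51 for CCNA2, −0.43 for TYMS and −0.28 for KIF11; those of CCNA2 and KIF11 were lost on library size alone.

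Among Wnt targets, FGF20 had 0.95, TNFRSF19 0.62, NOTUM 0.48 and VEGFA 0.39, and among adhesion genes CDH6 had 0.77 and PKP4 0.36. For CTNNB1, AXIN2, LGR5, MYC, TCF7 and LEF1 the difference did not pass, with adjusted p values of 0.597, 0.199, 0.73, 0.955, 0.259 and 0.173 in that order. That of CTNNB1 passed at −0.33 without replicate 3 of both shNT groups with cDNA. H1F0 had 0.93, HIST1H2AC 0.89 and MMP2 0.46.

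Outside these groups the higher differences were 1.57 for SLCO1A2, 1.53 for SULF1, 1.43 for KCNJ6, 1.40 for LPAR1, 1.39 for TG and 1.34 for FER1L6. That of SLCO1A2, with shNT under the level of 3 reads, was not called by edgeR or DESeq2 on recovered reads and ran from 0.57 to 3.30 over the settings. The lower ones were −1.27 for KCNJ13, −1.14 for TMSB4X, −1.05 for COL9A1, −1.02 for BMP6, −1.01 for VSIG2, −0.998 for CAPN6, −0.98 for CALB1, −0.96 for CNKSR1, −0.95 for KCNAB3 and −0.90 for HAPLN1. They were −0.84 for PCDH11X, −0.83 for TFRC, −0.79 for NRARP, −0.76 for FAM219A, −0.50 for TBX2, −0.46 for CUX2 and −0.37 for EFNA5. The call of TFRC was lost in 13 of 25 alternatives, that of PCDH11X without the third library of sh1487 with the cDNA and that of EFNA5 without the second.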

How the results depend on the processing

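For the cDNA in uninduced sh1487, 3273 genes passed. With only the groups compared in the fit 5093 passed, and 5899 with a replicate block added. For the difference from shNT, 2384 passed, 2680 with only the groups compared and 3630 with the replicate block added. Without replicate 3 of both shNT groups with cDNA, an alternative chosen for sh1487 after seeing the data, 4664 genes passed in sh1487, all 3273 among them, and 2949 for the difference. The block called more genes, but same-numbered libraries of the sh1487 groups had residual correlations of 0.43, −0.20 and 0.19, so the numbers do not pair them, and not every library correlated best with its own number. Leaving out each library in turn gave 2173 to 2597 genes for the cDNA in sh1487 and 1835 to 2290 for the difference. The lowest count, 2173, was without the first library of sh1487 without cDNA, and 2134 of the 3273 genes were still called there. The log2 change of CTNNB1 stayed between 1.12 and 1.23 and kept its call in every setting run.

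The other tests on recovered reads gave 3240 genes by edgeR, 3261 by limma-voom and 3595 by DESeq2, with 3187, 3178 and 3211 of the 3273 among them. Library size alone gave 2163 genes higher and 875 lower, with 2653 of the 3273 among them. DESeq2 size factors gave 1714 higher and 1655 lower, with 3143 of the 3273 among them. The median of all genes moved by at most 0.03 under the other scalings. Over 21 settings 21 to 25 of the 30 stress response effectors rose and 1 fell, 9 to 19 of the 24 cholesterol genes fell, 10 to 26 of the 40 replication genes fell and 7 to 11 of the 15 heat shock genes fell. Of cytosolic ribosomal protein genes 0 to 16 of 39 rose. Of 1749 values of named genes for sh1487, 1718 kept direction and side of the threshold, 23 lost the call, 8 gained it and none reversed; of 2214 for the difference these numbers were 2175, 34, 5 and 0. The log2 change of low genes moved with the pseudocount and the test: that of HAPLN1 was −0.32 at a pseudocount of 5 and −2.49 by limma-voom. Depth limits genes near 3 reads, such as KCNJ13 with the cDNA.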

Other observations

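Along the chromosomes, windows that may overlap, each of 10 neighbouring tested genes, had medians between −0.18 and 0.21 in 98% of 13593 windows. Of windows that do not overlap, the highest median was 0.56, on chromosome 12 from 57229327 to 57521737 (GRCh38), where 8 of 10 genes rose, namely SHMT2, INHBE, MARS, DDIT3, NDUFA4L2, STAC3, GLI1 and MIR616. The next was 0.38, on chromosome 6 from 28224886 to 29633976, a block of ZSCAN and ZKSCAN zinc finger genes in which 9 of 10 rose. A window on chromosome 18 from 50967991 to 55124306 had 0.36, where 6 genes rose, ELAC1 and RAB27B among them, and MBD2 fell. The lowest median was −0.38, in the HOXA cluster on chromosome 7 from 26551822 to 27175180, where 6 of 10 fell. The others were −0.33 on chromosome 9 from 77177353 to 83708203, with TLE4 and TLE1 among 7 that fell and PSAT1 risen, and −0.28 on chromosome 22 from 43166622 to 45240769, where 5 fell. Neighbours can share reads and the windows were ranked on these data, so this is a description with no test.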
